A study of Mus musculus with 20 samples.

Results

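The Dppa genes (developmental pluripotency associated) were followed in mouse preimplantation embryos in which p300, a lysine acyltransferase encoded by Ep300, had been targeted with siRNA. They were taken by symbol: Dppa1, Dppa2, Dppa3, Dppa4 and Dppa5a, 5 of the 25208 genes in the counts table. All 5 passed the filter on low counts, as did 16603 genes in all. Whole embryos were profiled with Smart-seq2, a full-length method for very small RNA inputs, in 20 libraries that form 10 groups of 2. The control groups, of genotype WT, and the P300 siRNA groups, labelled P300 knockdown, cover 4 stages, namely late 2-cell, then 4-cell, then the early and late phases of the 8-cell embryo. The other groups are late 8-cell embryos labelled as P300 knockdown with an I1394G rescue or an NaCr rescue, so both carry the siRNA too. The labels do not spell out what I1394G and NaCr are; the form of the first is that of an amino acid substitution, and the second is an abbreviation that may stand for sodium crotonate. All embryos were cultured from zygotes in KSOM medium. Strain, age and the number of embryos in a library are not given in the sources used here. Nothing in the labels says whether the libraries of a group came from separate collections, so p-values measure only the spread between these samples, which may be technical.

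These genes are grouped by name and by early embryonic expression, not by sequence. Dppa3 (also called Stella or PGC7) is a maternal factor that protects the maternal genome from loss of 5-methylcytosine after fertilisation and that restrains the maintenance methylation factor Uhrf1. Dppa2 and Dppa4 are SAP-domain proteins that bind each other on chromatin; in mouse embryonic stem cells they are needed for expression of Dux and of the 2-cell activation genes downstream of it, and they keep some developmental promoters poised. Dppa5a (Esg1) encodes a KH-domain protein that binds RNA and is abundant in pluripotent cells.

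Stretches shared with other genes limit what short reads can assign to the Dppa genes, and Dppa5a had the highest share of them. The first coding bases of Dppa5a and of its unprocessed pseudogene copy Dppa5b are shown, from the GENCODE vM21 transcripts (build GRCm38, 5′ to 3′ on the transcribed strand), with the bases of Dppa5b that differ in capitals.
Dppa5a: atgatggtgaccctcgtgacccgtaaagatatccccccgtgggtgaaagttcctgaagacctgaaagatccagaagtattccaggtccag
Dppa5b: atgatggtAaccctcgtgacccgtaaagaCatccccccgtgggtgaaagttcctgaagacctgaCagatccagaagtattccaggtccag
The same stretch of a further copy, Dppa5c, was identical to that of Dppa5b. Over the 348 aligned bases, 309 were the same in Dppa5a and Dppa5b, an identity of 88.8%. Of all 50-base stretches in the transcripts of Dppa5a, 38.6% also occurred in transcripts of other genes. Dppa5b held 10% of them, fewer than the pseudogene Gm15310 (13.0%) or Pigp (12.3%), a protein-coding gene that has its own entry in the counts table. The share over all other genes was 35.1% for Dppa4, 29.1% for Dppa2, 16.5% for Dppa3 and 6.08% for Dppa1. Most of those other genes are processed pseudogenes that have no entry of their own in the counts table, so the levels below are uncertain to the extent that the authors' counting split or dropped such reads.

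The libraries held between 3202332 and 24785201 counts, and the lowest total was that of P300 siRNA late 8-cell replicate 1. The Dppa genes together took between 0.332% and 1.55% of the counts of a library. All 8 markers of the preimplantation embryo were detected in every group except Cdx2, which was at 0 in both early 8-cell siRNA libraries. Their summed level was lower with siRNA from the 4-cell stage on, as given beside the Dppa counts below. At the late 2-cell stage the sums overlapped, at 298 to 350 CPM in siRNA and 321 to 365 CPM in control embryos. Ep300 itself stood at 86.1 and 83.8 CPM (counts scaled to library size, here normalised by the TMM method) in late 2-cell controls and at 22.6 and 29.9 in siRNA embryos of that stage. That difference was not called (log2 difference -1.69, SE 0.37, edgeR adjusted p = 0.318). Ep300 fell in siRNA embryos at the 4-cell stage, from 48.3 and 88.4 to 11.4 and 19.1 CPM (-2.15, SE 0.37, edgeR adjusted p = 0.00128), and at the early 8-cell stage, from 41.5 and 82.9 to 11.7 and 16.4 CPM (-2.15, SE 0.37, edgeR adjusted p = 8.19e-04). In late 8-cell embryos it was at 22.0 and 15.2 CPM in controls and at 16.2 and 13.2 in siRNA embryos (-0.36, edgeR adjusted p = 0.50), so the level of the targeted gene does not check the labels there.

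Dppa3 was among the most abundant transcripts of every library. Per transcript length, in FPKM (fragments scaled by transcript length and library size), it ranked between the first and the fifth of all genes in each of the 20 libraries, with 3100 to 10183 FPKM. Dppa5a was next in every group, with 284 to 6162 FPKM and a best rank of 3. Dppa2 (127 to 1579 FPKM) lay above Dppa4 (160 to 747 FPKM) from the 4-cell stage on, and below it in all 4 late 2-cell libraries. Dppa1 never exceeded 13.2 FPKM. The plot of FPKM in each library shows this order. One FPKM column, that of control early 8-cell replicate 2, departed from its own counts (Pearson's r across genes 0.906, against 0.992 to 0.999 in the others), so comparisons between groups were made on counts.

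**Figure D1:**
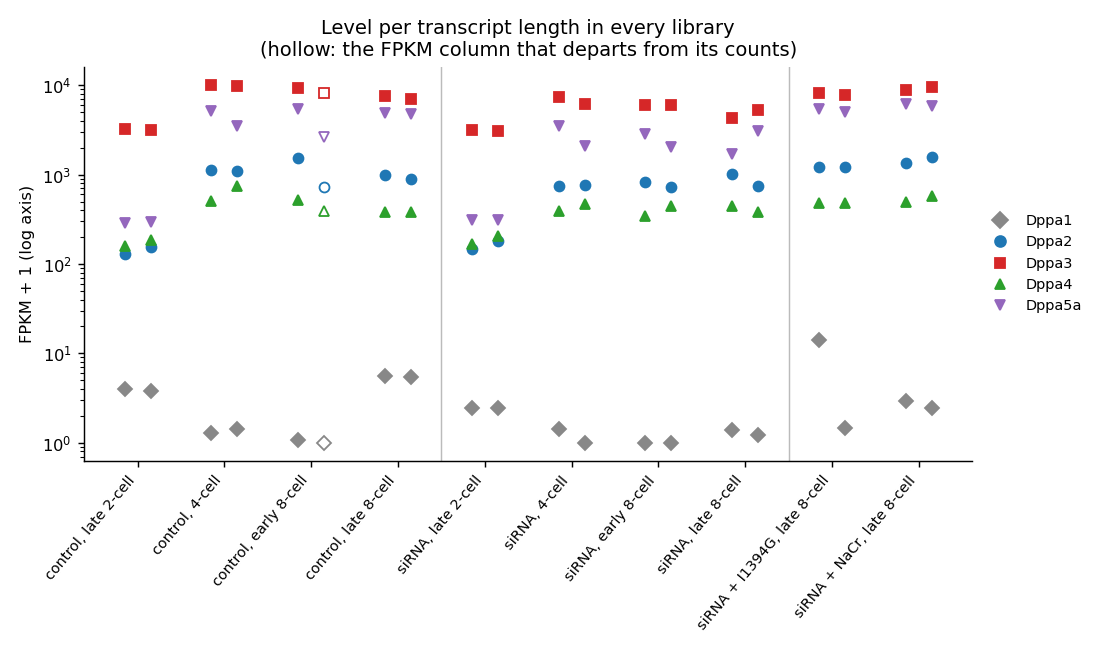
FPKM + 1 on a log axis for each Dppa gene in each of the 20 libraries, by group; each symbol is 1 library, and hollow symbols mark the FPKM column that departs from its counts. Dppa3 is highest in every library, and Dppa1 stays at or below 13.2 FPKM.

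In control embryos 4 of the 5 genes rose steeply between the late 2-cell and the 4-cell stage. Dppa5a, at 153 and 161 CPM in the late 2-cell controls, reached 3846 and 2377 CPM in the 4-cell controls. That is a log2 rise of 4.31 (SE 0.31, edgeR adjusted p = 2.18e-09), the steepest of the 4. Dppa2 went from 208 and 252 CPM to 2521 and 2300 (log2 difference 3.39, SE 0.21). Dppa4 went from 206 and 241 CPM to 905 and 1233 (2.26, SE 0.20). Dppa3, already at 2239 and 2194 CPM, rose to 9652 and 8536 (2.04, SE 0.16). The groups did not overlap for any of these 4 genes, and the largest of the 3 adjusted p (edgeR) was 2.96e-08. With 2 libraries per group such non-overlap is a weak criterion, and its share over all genes tested was not computed, here or below. This was a step at which 61.2% of all genes tested were called, in either direction, with a median log2 difference of -0.40 over all genes against 2.26 over the 5 Dppa genes. Dppa1 went the other way, from 6.03 and 5.64 CPM to 0.826 and 1.05, and did not pass the test (-2.60, SE 1.12, edgeR adjusted p = 0.0524). The FPKM values of all 4 late 2-cell libraries follow their counts at r = 0.992, lower than the 0.997 to 0.999 of the later libraries with no departing column, and the part of this in the step was not tested. The sample records of these 4 libraries are also numbered apart from those of all later libraries, and the labels do not say why. Stage and any other difference between these sets cannot be told apart at this step, in control or siRNA embryos.

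Between the 4-cell and early 8-cell controls no Dppa gene was called, with log2 differences from -0.77 for Dppa1 to 0.39 for Dppa5a. The lowest unadjusted p among them was 0.103, DESeq2 called 0 as well, and 1.13% of all genes were called. From early to late 8-cell controls 2 of the 5 were called, where 26.2% of all genes were. Dppa1 rose from 0.197 and 0.897 CPM (2 and 10 counts) to 12.4 and 12.4 CPM (242 and 225 counts), a log2 difference of 4.46 (SE 1.23, edgeR adjusted p = 0.0130). Without control early 8-cell replicate 1 its adjusted p was 0.0926. Dppa3 fell from 8819 and 10257 CPM to 7264 and 6734 (-0.45, SE 0.16, edgeR adjusted p = 0.0415), and this call was lost with a replicate block (edgeR adjusted p = 0.0519) and without control early 8-cell replicate 2 or either late 8-cell control (0.109 to 0.257). Dppa2 stood at 3419 and 2655 CPM in early and at 2220 and 2009 in late 8-cell controls, which do not overlap (-0.52, edgeR adjusted p = 0.0556).

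In siRNA embryos the same 4 genes rose at the first step. Dppa2, Dppa3, Dppa4 and Dppa5a differed between the late 2-cell and 4-cell siRNA groups by 2.49, 1.40, 1.48 and 3.48 on the log2 scale, with SEs of 0.21, 0.16, 0.20 and 0.30. All 4 were called, as were 58.5% of all genes. Dppa1 was not (-2.86, edgeR adjusted p = 0.0727). No Dppa gene was called between the 4-cell and early 8-cell siRNA groups, where 0.494% of all genes were called; the lowest unadjusted p was 0.0942 and DESeq2 called 0 too. Only Dppa3 was called between early and late 8-cell siRNA embryos, of 13.0% of all genes: it fell from 4673 and 4666 CPM to 3010 and 3601 (-0.50, SE 0.16, edgeR adjusted p = 0.0430). With a replicate block the adjusted p (edgeR) was 0.0531, and without either early 8-cell or the first late 8-cell siRNA library it was 0.110 to 0.162.

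**Figure D2:**
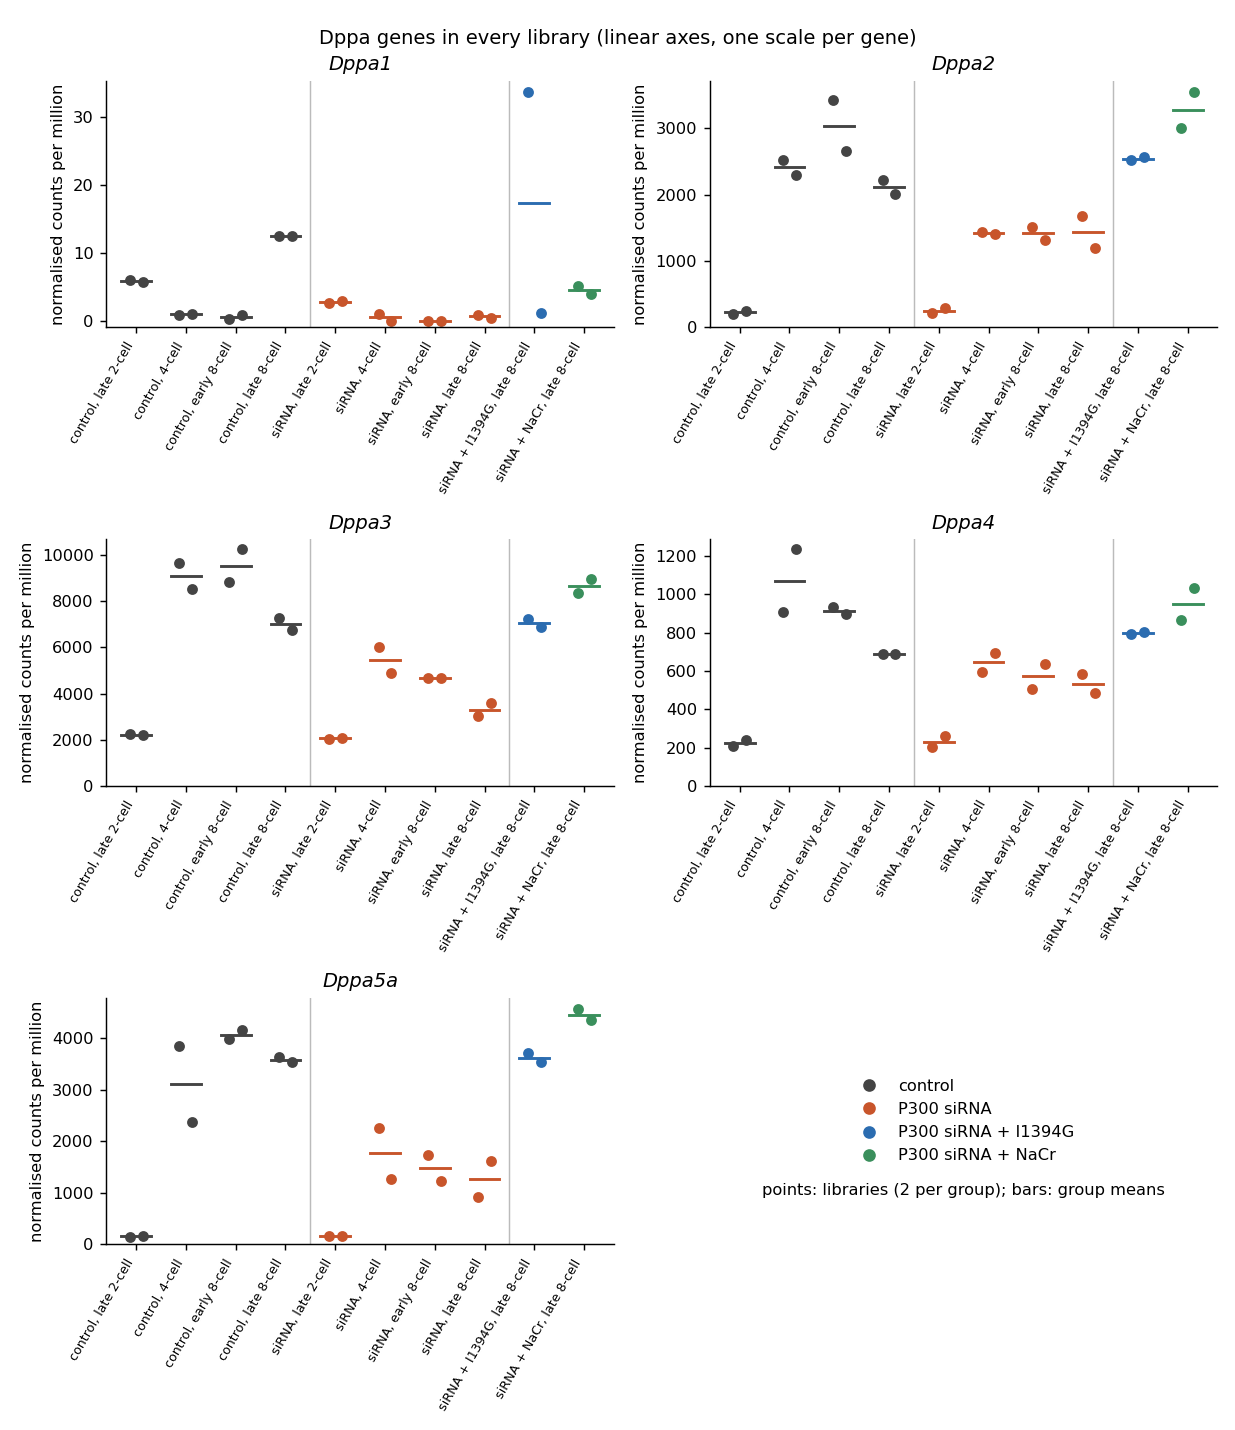
Normalised CPM of each Dppa gene in every library, on linear axes with a scale for each gene; points are libraries (2 per group) and bars are group means. From the 4-cell stage on, the orange siRNA points of Dppa2, Dppa3, Dppa4 and Dppa5a lie below the controls of the same stage, and for these 4 genes the green NaCr points lie above both late 8-cell controls and the blue I1394G points lie close to or above them.

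The siRNA and control groups were then compared stage by stage. At the late 2-cell stage the Dppa genes did not differ detectably between them: 0 of 5 were called, against 0.00602% of all genes. Dppa3 was at 2239 and 2194 CPM in controls and at 2025 and 2096 in siRNA embryos (log2 difference -0.11, 95% interval -0.43 to 0.22). The intervals were -0.26 to 0.55 for Dppa2, -0.36 to 0.45 for Dppa4 and -0.57 to 0.59 for Dppa5a. Dppa1 was lower in both siRNA libraries (2.63 and 2.87 CPM against 6.03 and 5.64), with a difference of -1.08 whose interval, -3.29 to 1.13, is wide. Every adjusted p (edgeR) was 1, the lowest unadjusted p was 0.319, and DESeq2 and limma called 0.

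Dppa3 fell in siRNA embryos at each of the 3 later stages, where the share of all genes tested that were called was 15.0% (4-cell), 16.5% (early 8-cell) and 28.0% (late 8-cell). At the 4-cell stage it was at 9652 and 8536 CPM in controls and at 5995 and 4891 in siRNA embryos, a log2 difference of -0.74 (SE 0.16, edgeR adjusted p = 0.00469). In the early 8-cell groups it was at 8819 and 10257 CPM without and at 4673 and 4666 with siRNA (-1.03, SE 0.16, edgeR adjusted p = 2.73e-04). The late 8-cell levels were 7264 and 6734 against 3010 and 3601 CPM (-1.08, SE 0.16, edgeR adjusted p = 1.00e-04). The 2 groups did not overlap at any of the 3 stages, and every siRNA library lay below every control library of its stage. The 4-cell call was lost without siRNA 4-cell replicate 2 (-0.60, edgeR adjusted p = 0.0544); the late 8-cell call was kept under all 12 alternatives.

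Dppa5a, the KH-domain gene, had the largest point estimates among the 4 abundant members at both 8-cell stages. It stood at 3979 and 4151 CPM in early 8-cell controls and at 1732 and 1233 in siRNA embryos, a fall of 1.46 on the log2 scale (SE 0.28, edgeR adjusted p = 0.00175). At the late 8-cell stage it stood at 3627 and 3529 CPM in controls and at 913 and 1621 in siRNA embryos (-1.50, SE 0.28, edgeR adjusted p = 8.44e-04). At the 4-cell stage the libraries of each group lay far apart, 3846 and 2377 CPM in controls and 2249 and 1276 in siRNA embryos, and the difference of -0.82 (SE 0.28) did not pass the test (edgeR adjusted p = 0.0523). The groups did not overlap at any of these stages. The early 8-cell call of Dppa5a was kept in 10 of 13 alternatives and lost in 3. Its late 8-cell call was kept in 11 of 12 and lost in 1.

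The chromatin partners Dppa2 and Dppa4 were called lower at the 4-cell and early 8-cell stages; differences between the genes in the size of the effect were not tested. Dppa2 was at 2521 and 2300 CPM in 4-cell controls and at 1442 and 1413 in siRNA embryos (log2 difference -0.76, SE 0.19, edgeR adjusted p = 0.0153), and at 3419 and 2655 against 1519 and 1321 CPM at the early 8-cell stage (-1.10, SE 0.20, edgeR adjusted p = 0.00101). At the late 8-cell stage it was at 2220 and 2009 against 1684 and 1193 CPM, a smaller difference (-0.56, SE 0.19, edgeR adjusted p = 0.0406). Dppa4 was at 905 and 1233 against 594 and 695 CPM at the 4-cell stage (-0.73, SE 0.19, edgeR adjusted p = 0.0181) and at 932 and 895 against 504 and 638 CPM at the early 8-cell stage (-0.68, SE 0.19, edgeR adjusted p = 0.0227). Its late 8-cell levels, 690 and 687 against 582 and 486 CPM, did not pass the test (-0.37, SE 0.19, edgeR adjusted p = 0.169). Control and siRNA libraries of these genes did not overlap at any of the 3 stages. With 2 libraries per group this is a weak criterion, and its share over all genes tested was not computed. It adds no call for Dppa4 at the late 8-cell stage. Single libraries decided several of these calls. At the 4-cell stage the call of Dppa2 was lost without either siRNA library (edgeR adjusted p = 0.0625 and 0.0678), and that of Dppa4 without siRNA replicate 1 (0.122) or control replicate 2 (0.177; log2 difference -0.49). At the early 8-cell stage the call of Dppa4 was lost without either control (0.0763 and 0.0825) or without siRNA replicate 1 (0.191). The late 8-cell call of Dppa2 was lost without either control (0.198 and 0.0927) or without siRNA replicate 2 (-0.34, edgeR adjusted p = 0.269).

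Dppa1 was scarce, and its values rest on few counts. At the 4-cell stage it had 8 and 23 counts in controls and 7 and 0 in siRNA embryos (log2 difference -1.34, SE 1.35, edgeR adjusted p = 0.544). At the early 8-cell stage it had 12 counts over both controls and 0 over both siRNA libraries, at least 3.68-fold lower against a floor of 3 counts over the group, and this was not called (edgeR adjusted p = 0.158). At the late 8-cell stage, where controls had 242 and 225 counts (12.4 and 12.4 CPM), the siRNA libraries had 3 and 11 (0.796 and 0.449 CPM). It was called, with a log2 difference of -4.49 (SE 1.28, edgeR adjusted p = 0.0153). Its direction was the same without either siRNA library, but the adjusted p was then 0.0576 or 0.144.

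**Figure D3:**
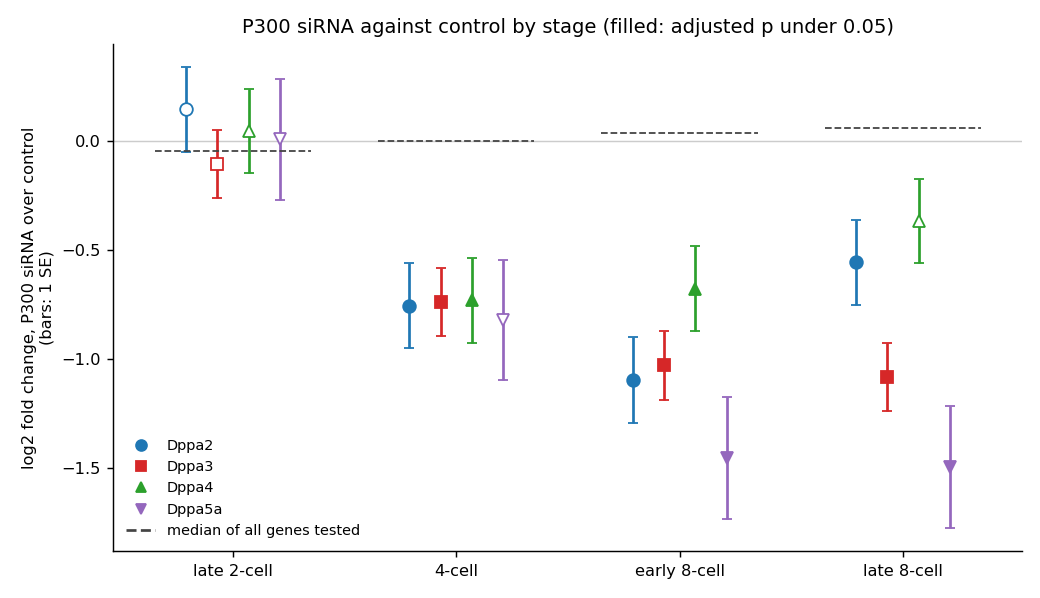
Log2 fold change of P300 siRNA over control (edgeR, bars 1 SE) at each stage for the 4 abundant Dppa genes, with filled symbols where the adjusted p is under 0.05 and dashed lines at the median of all genes tested; Dppa1 is left out because its counts are low. All 4 genes sit near 0 at the late 2-cell stage and between -0.37 and -1.50 at the later stages.

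In all, 3 of 5 Dppa genes were called lower at the 4-cell stage, 4 of 5 at the early and 4 of 5 at the late 8-cell stage, and none was called higher. Over all genes tested the share called, in either direction, was 15.0%, 16.5% and 28.0%. The Dppa genes' median log2 difference was -0.76, -1.10 and -1.08, beside 0.00, 0.04 and 0.06 over all genes tested. Of the 8 markers of the preimplantation embryo, 3 were called lower at the 4-cell, 5 at the early 8-cell and 4 at the late 8-cell stage, and 0 higher, with medians of -0.88, -1.62 and -0.78. Their summed level was 161 to 175 CPM in siRNA and 323 to 366 CPM in control embryos at the 4-cell stage, 160 to 187 against 424 to 433 CPM at the early 8-cell stage and 439 to 461 against 905 to 986 CPM at the late 8-cell stage, and their part in the Dppa differences was not tested. The counts depend on the test: fitted on the 4 libraries of the 4-cell comparison alone, 0 were called there, and limma on log2(FPKM + 1) called 1, 0 and 3 at the 3 stages (2 at the early 8-cell stage without the departing column). The scaling of the libraries bears on the late 8-cell stage most, where the TMM factors were 1.18 and 1.21 in siRNA and 0.858 and 0.854 in control libraries. The median of all genes there was 0.06 with TMM, 0.20 with DESeq2 size factors and 0.54 with library totals alone. Under library totals the late 8-cell value of Dppa4 turned to 0.11 and that of Dppa2 stood at -0.08, and Dppa2 was not called with DESeq2 size factors (-0.41, edgeR adjusted p = 0.136). The calls of Dppa4 at the 4-cell stage (-0.55, edgeR adjusted p = 0.0646) and the early 8-cell stage (-0.39, edgeR adjusted p = 0.172) were also lost under library totals, where the median of all genes was 0.16 and 0.32. Relative to the late 8-cell median of all genes under the same scaling, Dppa2 stood at -0.62, -0.61 and -0.62, Dppa4 at -0.43, -0.42 and -0.43, Dppa3 at -1.14, -1.14 and -1.14, and Dppa5a at -1.56, -1.56 and -1.55 under the 3 scalings. These levels are scaled to the library, so in whole-embryo samples cell number and RNA per cell can be neither read from them nor told apart.

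Whether the siRNA difference itself changed with stage was tested in the same fit. Here too the late 2-cell stage coincides with the separately numbered sample records. A joint test over the 4 stages called Dppa2 (edgeR adjusted p = 0.0235), Dppa3 (0.0160) and Dppa5a (0.0318), but not Dppa4 (0.132) or Dppa1 (0.282), where 16.3% of all genes were called. Between neighbouring stages no Dppa gene was called: 0 of 5 from the late 2-cell to the 4-cell stage (4.28% of all genes; lowest adjusted p by edgeR 0.0729, for Dppa2), 0 of 5 from the 4-cell to the early 8-cell stage (0% of all genes) and 0 of 5 from the early to the late 8-cell stage (6.63%). At an unadjusted p under 0.05 (edgeR) there were 4, 0 and 0 such genes, beside 3365, 1265 and 3930 of the 16603 genes tested. DESeq2 called 3, 0 and 0 Dppa genes. The joint calls rest on the late 2-cell libraries: 0 of the 3 were left without late 2-cell control replicate 1 or siRNA replicate 2, and 1 without control replicate 2.

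Markers of other cell types moved with the late 8-cell comparison. The summed level of 9 cumulus and granulosa markers was 7.17 to 12.4 CPM in the late 8-cell siRNA libraries and 0.0513 to 0.221 CPM in their controls, and Ptx3 and Tnfaip6, both at 0 in those controls, were called higher; 3 of the 9 were at 0 in both siRNA libraries. Of 4 blood markers only Cd68 passed the filter; the summed level was 44.9 to 47.7 CPM in siRNA and 6.89 to 7.39 in control embryos, while 2 of the 4 were at 0 in the siRNA libraries and 3 of the 4 in the controls. Cd68, a macrophage gene, was also called higher at the 4-cell and early 8-cell stages. With I1394G and NaCr the blood sum was 30.4 to 48.6 CPM, while the cumulus sum was 0.622 to 2.19 CPM. Sperm markers summed to at most 3.35 CPM in any library. The part of these markers in the Dppa differences was not tested.

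The treated late 8-cell groups were compared with siRNA alone and with control. No group has I1394G or NaCr without siRNA, so a change in what the siRNA does and an effect of the treatment alone cannot be told apart. Ep300 was at 14.8 and 16.2 CPM with I1394G and at 11.6 and 12.6 CPM with NaCr, beside 16.2 and 13.2 with siRNA alone, and was called in neither comparison with siRNA (edgeR adjusted p = 0.913 and 0.665). The Dppa genes were higher in both than in the siRNA embryos. In the I1394G group 4 of 5 were called higher than in siRNA embryos, where 10.8% of all genes were called, and in the NaCr group 4 of 5, where 15.3% were. The members' medians were 1.09 and 1.39 on the log2 scale, beside -0.07 and -0.13 over all genes. These 2 comparisons share the siRNA libraries with each other and with the comparison of siRNA and control, so their agreement in genes or sign is no separate evidence.

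Dppa3, at 3010 and 3601 CPM with siRNA alone, was at 7217 and 6861 CPM with I1394G (log2 difference 1.09, SE 0.16, edgeR adjusted p = 6.63e-04) and at 8368 and 8975 CPM with NaCr (1.39, SE 0.16, edgeR adjusted p = 8.03e-05). Dppa5a, at 913 and 1621 CPM, was at 3715 and 3524 CPM with I1394G (1.51, SE 0.28, edgeR adjusted p = 0.00301) and at 4553 and 4345 CPM with NaCr (1.81, SE 0.28, edgeR adjusted p = 5.29e-04). For both genes all treated libraries lay above both siRNA libraries. Dppa2, at 1684 and 1193 CPM, was at 2520 and 2563 CPM with I1394G (0.82, SE 0.20, edgeR adjusted p = 0.0121) and at 2996 and 3544 CPM with NaCr (1.19, SE 0.20, edgeR adjusted p = 7.74e-04). The I1394G call of Dppa2 was lost without siRNA replicate 2 (0.0696) and without either I1394G library (0.0710 and 0.0802), and under library totals (0.45, edgeR adjusted p = 0.108). Dppa4, at 582 and 486 CPM, was at 867 and 1032 CPM with NaCr (0.83, SE 0.19, edgeR adjusted p = 0.00780; 0.0960 without NaCr replicate 2, and a difference of 0.37 with 0.193 under library totals). With I1394G it was at 791 and 800 CPM, which did not pass the test (0.58, edgeR adjusted p = 0.0643).

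Dppa1 split the I1394G libraries: replicate 1 held 658 counts (33.6 CPM) and replicate 2 held 27 (1.19 CPM). The difference from siRNA embryos was called (4.97, SE 1.29, edgeR adjusted p = 0.0207), but it was 1.10 with an adjusted p of 0.663 without replicate 1. It was also lost without either siRNA library (0.0952 and 0.145). In the NaCr group Dppa1 was at 5.15 and 3.98 CPM, above both siRNA libraries and below both controls, and was not called against siRNA (3.05, SE 1.26, edgeR adjusted p = 0.110).

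Against late 8-cell controls no Dppa gene was called in either treated group, where 3.17% of all genes were called with I1394G and 1.57% with NaCr. With I1394G, Dppa3 differed from control by 0.01 (95% interval -0.32 to 0.33) and Dppa5a by 0.02 (-0.56 to 0.59), Dppa2 by 0.27 (-0.14 to 0.67) and Dppa4 by 0.21 (-0.20 to 0.61). With NaCr the same 4 genes differed by 0.31 (-0.02 to 0.64), 0.31 (-0.26 to 0.89), 0.63 (0.22 to 1.04) and 0.46 (0.06 to 0.87). Both NaCr libraries were above both controls for each of the 4. With 2 libraries per group this is a weak criterion, and its share over all genes tested was not computed. The lowest adjusted p (edgeR) was 0.118, for Dppa2. At an unadjusted p under 0.05 (edgeR) there were 0 Dppa genes with I1394G and 2 with NaCr, beside 2806 and 2234 of the 16603 genes tested. DESeq2 called 0 and 1 Dppa genes, and a fit of the 4 libraries of each comparison alone called 2 and 5. Between the I1394G and NaCr groups 0 of 5 were called, as were 0% of all genes; all 4 abundant members were higher with NaCr, by 0.26 to 0.36 on the log2 scale, with unadjusted p of 0.0688 to 0.291 and 0 calls by DESeq2.

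**Figure D4:**
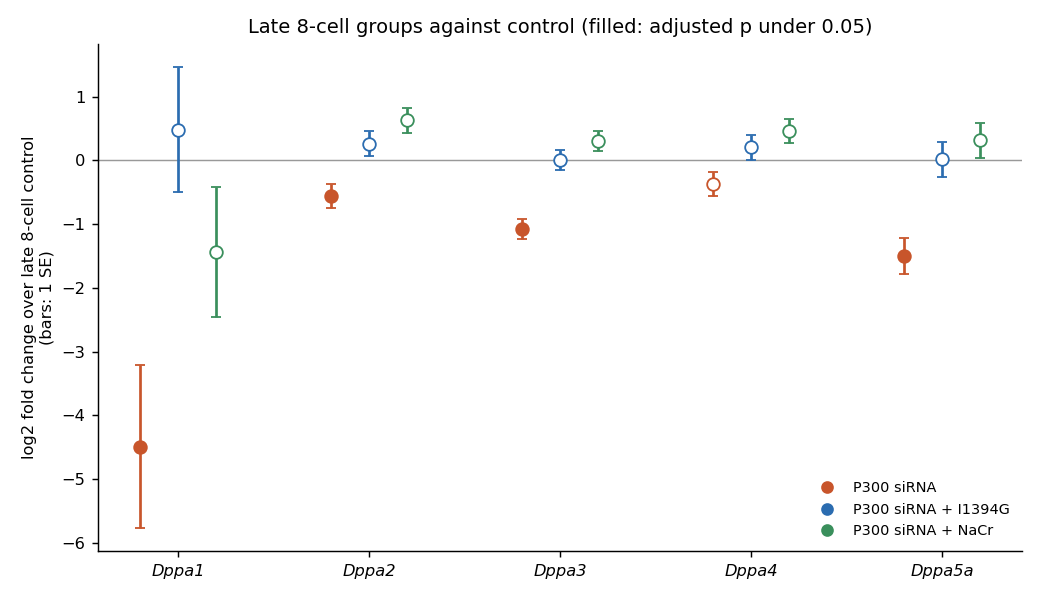
Log2 fold change over late 8-cell control (edgeR, bars 1 SE) for the siRNA, I1394G and NaCr groups, with filled symbols where the adjusted p is under 0.05; the 3 comparisons share the control libraries. Only siRNA symbols are filled, at Dppa1, Dppa2, Dppa3 and Dppa5a, while the I1394G and NaCr symbols of Dppa2 to Dppa5a lie between 0.01 and 0.63.

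The order of the group means put the treated and control groups of the later stages first and the late 2-cell groups last for Dppa2, Dppa3, Dppa4 and Dppa5a. Dppa3 ran from 9538 CPM in early 8-cell controls through 9094 in 4-cell controls, 8671 with NaCr, 7039 with I1394G and 6999 in late 8-cell controls to 5443, 4670 and 3305 in the 4-cell, early 8-cell and late 8-cell siRNA groups. Of the 9 pairs of neighbours in such an order, the libraries overlapped in 3 for Dppa3, 5 for Dppa2, 5 for Dppa5a, 6 for Dppa4 and 4 for Dppa1. The 3 later siRNA groups of Dppa2, at 1438, 1428 and 1420 CPM, could not be ordered by their libraries, and neither could those of Dppa5a, at 1762, 1482 and 1267 CPM. Dppa1 had an order of its own, led by the split I1394G group and the late 8-cell controls (12.4 CPM), with late 2-cell controls (5.83 CPM) next.

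Genes tied to the Dppa proteins by known roles were read from the same fits, as lists chosen with earlier results of these data known. In the comparison of siRNA and control at the late 2-cell stage no gene of any list was called by edgeR. At an unadjusted p under 0.05 (edgeR) there were 3 of 24 maternal oocyte transcripts, 3 of 24 pluripotency genes and none of the other lists here. Of all 16603 genes tested, 689 were under that threshold. Of 29 genes listed from general knowledge as 2-cell activation genes downstream of Dppa2 and Dppa4, 25 were tested. Whether each listed gene needs Dppa2 or Dppa4 was not tested. None of the 25 was called at the 4-cell stage, where 15.0% of all genes were. At an unadjusted p under 0.05 (edgeR) there were 3, beside 5051 of the 16603 genes tested. The most abundant, Eif1a, stood at 916 ± 96.7 CPM in controls and 683 ± 22.0 in siRNA embryos (SD, n = 2). At the early 8-cell stage 3 were called higher and 0 lower, and at the late 8-cell stage 10 higher and 1 lower, beside 16.5% and 28.0% of all genes called. The late 8-cell median was 2.45 on the log2 scale, or 2.49 with genes lacking counts in 1 group set at their bound, beside 0.06 over all genes. Arg2, an arginase, rose at that stage from 2.27 ± 1.47 to 27.0 ± 8.71 CPM (SD, n = 2; edgeR adjusted p = 7.10e-05). Usp17lc, of a family of deubiquitinases, rose from 0.136 ± 0.120 to 1.55 ± 0.0578 CPM (edgeR adjusted p = 0.00775). Zfp352, a zinc finger gene, rose from 2.23 ± 1.35 to 62.9 ± 70.2 CPM (edgeR adjusted p = 0.0124), and its siRNA libraries lay far apart. Eif1a, a translation initiation factor gene, was the list's 1 lower gene (log2 difference -0.75, SE 0.20). Several of these genes belong to families of close copies, so the values of single members are uncertain. Against late 8-cell controls 0 of the 25 were called with I1394G and 0 with NaCr, beside 3.17% and 1.57% of all genes. At an unadjusted p under 0.05 (edgeR) there were 8 and 13 of them, beside 2806 and 2234 of the 16603 genes tested. The list's medians against control were 1.51 and 2.65. Against siRNA 3 and 2 were called lower and 0 higher, where 10.8% and 15.3% of all genes were called. The list's medians against siRNA were -0.49 and 0.25.

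Of 5 germline and developmental genes described as targets of Dppa2 or Dppa4 in stem cells, 1 was called higher at the 4-cell stage, 2 higher and 1 lower at the early 8-cell stage and 1 higher at the late 8-cell stage. Over all genes the share called at these stages was 15.0%, 16.5% and 28.0%, so a single gene of 5 is near or below it. Syce1, a component of the synaptonemal complex, rose from 11 ± 2.30 to 73.8 ± 8.22 CPM at the 4-cell stage and from 10.6 ± 8.79 to 72.3 ± 8.66 CPM at the early 8-cell stage. Hand1, a trophoblast transcription factor gene, fell at the early 8-cell stage from 163 ± 2.28 to 53.0 ± 20 CPM. The other early 8-cell gene was Nkx2-5, a cardiac transcription factor gene, which was at 0 in the controls.

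Of 13 tested DNA methylation genes, listed for the role of Dppa3 in methylation and not as its binding partners, 1 was called lower at the 4-cell stage. At the early 8-cell stage 1 was called higher and 1 lower, and at the late 8-cell stage 3 higher and 5 lower. Over all genes the share called at these stages was 15.0%, 16.5% and 28.0%; the counts of the list at the first 2 of these stages are at or below that share. Ehmt2, an H3K9 methyltransferase gene, fell by 1.28 (SE 0.30) at the 4-cell stage and dropped by 1.23 (SE 0.30) on the log2 scale at the early 8-cell stage. Uhrf1, the maintenance factor that Dppa3 restrains, rose in late 8-cell siRNA embryos from 11.2 ± 2.55 to 20.8 ± 6.15 CPM (edgeR adjusted p = 0.0299). Uhrf2, its relative, rose from 9.52 ± 2.0 to 27.2 ± 4.36 CPM. Tet3, the oocyte 5-methylcytosine oxidase, rose from 5.79 ± 0.233 to 11.5 ± 3.52 CPM. Tet2, another oxidase of that family, fell from 119.7 ± 9.01 to 13.2 ± 0.448 CPM (edgeR adjusted p = 1.53e-06), and the de novo methyltransferase gene Dnmt3b fell from 56.7 ± 2.09 to 14.7 ± 8.36 CPM. Trim28, a corepressor of zinc finger proteins, fell by 0.92 (SE 0.25) on the log2 scale. The members moved in both directions, and the median of the list was -0.24.

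Among 10 genes of the subcortical maternal complex and the KH-domain relatives of Dppa5a, 1 was called lower at the 4-cell stage, 2 lower at the early 8-cell stage, and 3 higher and 3 lower at the late 8-cell stage. Beside the 15.0%, 16.5% and 28.0% of all genes called, the first 2 counts are near the background. Khdc3, a KH-domain member of the complex, fell at the late 8-cell stage from 785 ± 40.5 to 227 ± 114 CPM, and Padi6, another component, fell from 40.6 ± 4.03 to 14.4 ± 7.26 CPM. Khdc1b rose from 16.9 ± 7.0 to 44.2 ± 3.97 CPM and Tle6, a structural component, from 5.20 ± 0.677 to 9.86 ± 0.433 CPM. Of 24 maternal oocyte transcripts 2 were called lower at the 4-cell stage, 1 higher and 1 lower at the early 8-cell stage, and 7 higher and 0 lower at the late 8-cell stage, with a median of 0.88. Counted in either direction, they are near or below the shares of all genes called, 15.0%, 16.5% and 28.0%. Of all 16603 genes tested at the late 8-cell stage, 2266 were called higher and 2379 lower, while the list's 7 were all higher. Dazl, an RNA-binding protein gene of germ cells, rose there from 10.2 ± 2.30 to 106 ± 7.61 CPM. Kit, a receptor tyrosine kinase gene, rose from 0.992 ± 0.313 to 8.28 ± 2.18 CPM.

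The pluripotency genes, with which the Dppa genes are named together, were called mainly lower. Of 24 tested, 8 were called lower and 1 higher at the 4-cell stage, 11 lower and 1 higher at the early 8-cell stage and 15 lower and 0 higher at the late 8-cell stage, beside 15.0%, 16.5% and 28.0% of all genes called. Their medians were -0.55, -0.88 and -1.37 on the log2 scale (-1.40 at the late 8-cell stage with bounds). Klf5, a transcription factor gene of the early trophectoderm and inner cell mass, fell from 129.5 ± 8.36 to 23.7 ± 0.0426 CPM at the late 8-cell stage. Zfp42, also called Rex1, fell from 293 ± 17.8 to 87.6 ± 10.1 CPM. Nr5a2, a nuclear receptor gene, fell by 1.74 (SE 0.22) at the 4-cell and 1.72 (SE 0.22) at the early 8-cell stage, and Tbx3, a T-box factor gene, with differences of -3.15 (SE 0.48) and -4.16 (SE 0.50). Fgf4 was the list's higher gene at both stages (1.53, SE 0.46, and 1.65, SE 0.46). Against siRNA 13 were called higher with I1394G and 15 with NaCr, where 10.8% and 15.3% of all genes were called in either direction. Against control 3 and 2 were called lower, where 3.17% and 1.57% of all genes were called. Tet1, Tcl1 and Dnmt3l each stand in more than 1 list.

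**Figure D5:**
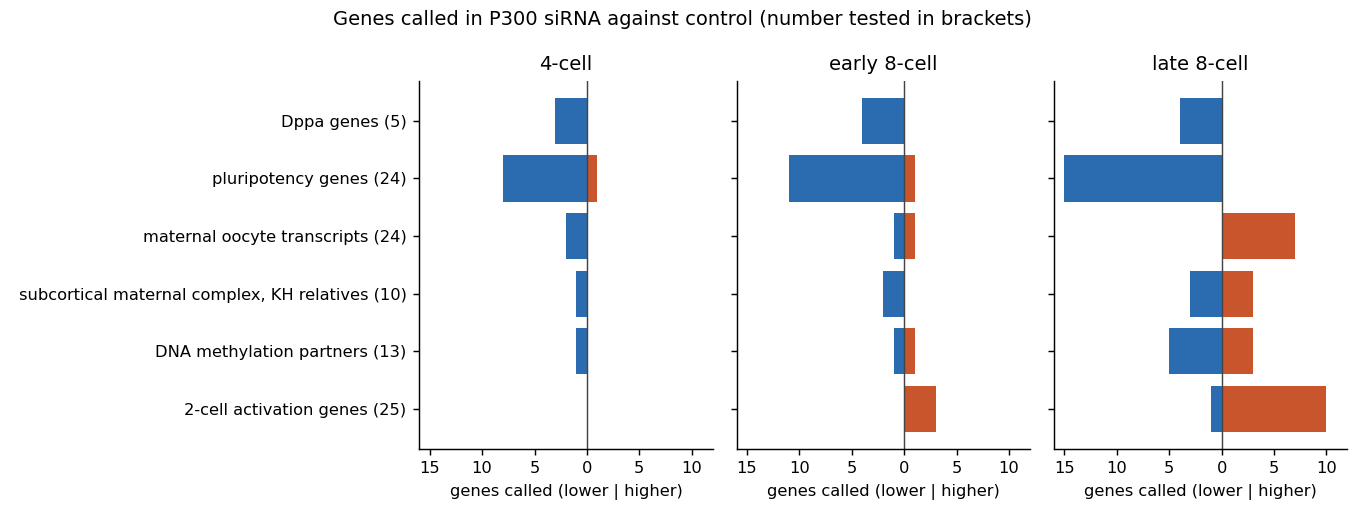
Number of genes called higher or lower in P300 siRNA than in control embryos (edgeR adjusted p under 0.05) in the Dppa genes and in each list other than the 5 germline and developmental genes, at the 4-cell, early 8-cell and late 8-cell stages, with the number tested in brackets. The Dppa genes and the pluripotency genes were called mainly lower, and the 2-cell activation genes were called mainly higher at the late 8-cell stage. The maternal oocyte transcripts called at that stage were all higher. Their number was near the 28.0% of all genes called in either direction, but 2266 of the 16603 genes tested were called higher.

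The abundant Dppa genes followed similar courses over the 20 libraries. Pearson's r of log2 CPM was 0.978 between Dppa2 and Dppa5a and 0.968 between Dppa2 and Dppa4. The lowest of the 6 pairs among Dppa2, Dppa3, Dppa4 and Dppa5a was Dppa2 with Dppa3 (0.924). Over the 16 libraries later than the late 2-cell stage these correlations were lower, from 0.626 for Dppa4 with Dppa5a to 0.897 for Dppa3 with Dppa5a. Dppa1 correlated with the others at -0.16 to -0.02 over 20 and 0.28 to 0.61 over 16 libraries. These points share libraries, groups and the late 2-cell step, so the values describe courses only.

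Outside the members, the genes most like each were named by the same measure among those with a mean of at least 10 CPM. For Dppa5a they were Ptgis (0.992), Sycn (0.989) and Timd2 (0.987). For Dppa3 they were Bcas3 (0.981), Tor2a (0.978) and Slc5a6 (0.976). Dppa2 was closest to Nt5c3b, Sf3b1 and Hnrnpc (each 0.985), and Dppa4 to Cbwd1, Drg1 (each 0.979) and Sf3b1 (0.977). For Dppa1 the likeness was weaker, with Taz (0.887), Dab2 (0.858) and Dnmt3l (0.851).

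Genes beside the Dppa genes on their chromosomes moved in both directions in siRNA embryos. Only some of these neighbours are named here, and the share called among them was not computed. Dppa4 and Dppa2 are next to each other in the RefSeq gene order (GRCm38), and of their tested neighbours Nectin3, a cell adhesion gene, was higher at the late 8-cell stage (1.44, SE 0.52, edgeR adjusted p = 0.0486) while Morc1, on the other side of Dppa2, was not called at that stage (0.16). Dppa3 lies beside Nanog, a core pluripotency factor gene, and Gdf3, a growth factor gene. Nanog fell at the late 8-cell stage from 723 ± 33.7 to 76.9 ± 13.0 CPM (-3.23, SE 0.53) and Gdf3 fell by 3.93 (SE 0.78) on the log2 scale. Slc2a3, a glucose transporter gene next to Nanog, rose at the 4-cell (0.90) and early 8-cell (0.98) stages and fell at the late 8-cell stage (-1.23). Foxj2, the gene after it, was scarce (mean 5.79 CPM) and was called higher at the early 8-cell stage (3.02, SE 0.63). Beside Dppa1, Timd2 fell at the early (-0.99) and late (-1.65) 8-cell stages, as did Havcr1 (-1.42 and -1.85). BC053393, on the other side of Dppa1, was scarce (mean 3.93 CPM). It was called lower at the 4-cell (-3.55, SE 1.04), early 8-cell (-8.77, SE 1.74) and late 8-cell (-2.43, SE 0.89) stages. A floor of 3 counts over the early 8-cell siRNA group is 0.148 CPM. The fitted early 8-cell value therefore gives a direction and not a size. Near Dppa5a, Omt2a, an oocyte gene, rose at the late 8-cell stage (1.43, SE 0.36), and Ooep, of the subcortical maternal complex, was not called there (-0.71, SE 0.42, edgeR adjusted p = 0.217).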

How the data were processed

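The authors' deposited tables hold raw read counts per gene and FPKM values for the 20 libraries. Per the submitters' processing notes, bcl2fastq 2.20.0.422, cutadapt 4.1, HISAT2 2.2.1 and Cufflinks 2.2 were used with build mm9; their settings, the counting tool, the annotation and the use of strand are not given in the sources used here. The counts were tested with edgeR 4.0.16 (R 4.3.3): low counts were filtered by group, libraries were scaled by TMM, and a quasi-likelihood model with 1 coefficient per group over all 20 libraries was fitted to 16603 genes, with Benjamini-Hochberg adjustment over them and calls at an adjusted p under 0.05. The standard error is the size of the log2 difference divided by the square root of F. Residual degrees of freedom were 10, so the spread is pooled over groups of 2. The deposited FPKM values were used for levels between genes and, as log2 values, with limma 3.58.1; DESeq2 1.42.0 was a further alternative. The alternatives also covered scaling, the filter, pseudocounts of 1 and 0.1, a replicate block, and leaving out each library. The fits were tested on simulated data. Library totals of 3202332 to 24785201 counts limit only Dppa1, for which a floor of 3 counts was used. The members and lists were chosen with earlier results of these data known. Genes of a list were named by adjusted p, up to 3 called in each comparison and direction, or the most abundant where none was called; like genes were the 3 with the highest correlation, and neighbours the 3 named protein-coding genes on each side. Sequences came from GENCODE vM21 transcripts and gene order from RefSeq, both of build GRCm38, so no coordinates are given.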

Additional observations from a re-analysis of the deposited data

Results flagged for a closer look

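The siRNA difference of Dppa2, Dppa3 and Dppa5a differed between stages in a joint edgeR test over the 4 stages, with adjusted p of 0.0235, 0.0160 and 0.0318. For Dppa3 the log2 difference was -0.11 at the late 2-cell, -0.74 at the 4-cell, -1.03 at the early 8-cell and -1.08 at the late 8-cell stage. For Dppa5a it was 0.01, -0.82, -1.46 and -1.50, and for Dppa2 0.15, -0.76, -1.10 and -0.56. The joint test does not say between which stages the difference lies. No group had enough libraries to test a single library against the others of its group.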

How the results depend on the processing

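Of 33 called results of single Dppa genes, 12 kept their call in every alternative run, and over 441 alternative values 336 kept the call, 105 lost it and 0 turned the sign. The single-gene values of the differences between neighbouring stages were not recomputed, only their counts. The causes of the changes below were not tested. With limma on log2(FPKM + 1), the Dppa genes called numbered 1 at the 4-cell and 0 at the early 8-cell stage (siRNA against control), 2 for I1394G and 2 for NaCr against siRNA, 1 and 0 from early to late 8-cell in control and siRNA embryos, and 0 in the joint stage test. With log2(FPKM + 0.1) they numbered 0, 0 and, at the late 8-cell stage, 2; then 1, 2, 1, 0 and 0. On either FPKM scale uncalled values turned sign: Dppa4 at the late 8-cell stage (0.11), Dppa1 with I1394G against control (-0.28 and -0.76), Dppa2, Dppa3 and Dppa5a from 4-cell to early 8-cell controls (-0.085, -0.19 and -0.18), Dppa5a from early to late 8-cell controls (0.35), Dppa2 from 4-cell to early 8-cell siRNA embryos (0.038) and Dppa4 from early to late 8-cell siRNA embryos (0.085). Without the departing FPKM column, chosen after seeing the data, 2 were called at the early 8-cell stage, 1 from early to late 8-cell controls and 1 in the joint test, and Dppa3 from 4-cell to early 8-cell controls stood at -0.091.

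Fitted on the libraries compared alone, 0 were called at the 4-cell stage, 2 for I1394G against siRNA, 2 for I1394G and 5 for NaCr against control, 5 and 0 from early to late 8-cell in control and siRNA embryos, and 0 in the joint test. Library totals without TMM, also chosen after seeing the data, gave 0 from early to late 8-cell siRNA embryos and 1 in the joint test, and turned Dppa4 at the late 8-cell stage (0.11), Dppa2 from 4-cell to early 8-cell (0.040) and Dppa4 from early to late 8-cell siRNA embryos (0.078). DESeq2 size factors gave 0 from early to late 8-cell siRNA embryos. DESeq2's own test gave 1 for NaCr against control, 2 from early to late 8-cell siRNA embryos and 3 for the difference between the 4-cell and late 2-cell stages; without a filter these were 1, 2 and 2.

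With the replicate number as a block, 1 was called from early to late 8-cell controls and 0 in siRNA embryos, and no other count of Dppa genes changed. The numbers showed no general pairing of the samples: the correlation of same-numbered deviations over 45 pairs of groups ran from -0.063 to 0.418 with a median of 0.0076. Pairing within a single pair of groups, such as the one at 0.418, was not tested.

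With each library left out in turn, the counts ranged from 1 to 3 at the 4-cell stage, 2 to 3 at the late 8-cell stage, 2 to 3 for I1394G against siRNA, 1 to 1 and 0 to 1 from early to late 8-cell in control and siRNA embryos, 0 to 1 for the difference between the 4-cell and late 2-cell stages and 0 to 3 in the joint test; the lone library left in a group was assumed to vary like the other groups. Uncalled values that turned sign ranged at the late 2-cell stage from -0.053 to 0.32 (Dppa2), -0.15 to 0.22 (Dppa4) and -0.029 to 0.042 (Dppa5a), and for Dppa1 at the 4-cell stage from -6.73 to 0.029. For I1394G against control the ranges were -3.37 to 1.44 (Dppa1), -0.048 to 0.070 (Dppa3) and -0.021 to 0.057 (Dppa5a), and for I1394G against NaCr -1.94 to 2.87 (Dppa1). From 4-cell to early 8-cell they were -0.045 to 0.18 (Dppa3) and -0.42 to 0.015 (Dppa4) in controls, and -0.090 to 0.090 (Dppa2), -0.35 to 0.0077 (Dppa4) and -0.60 to 0.22 (Dppa5a) in siRNA embryos. From early to late 8-cell siRNA embryos they were -0.25 to 0.24 (Dppa2), -0.28 to 0.078 (Dppa4) and -0.70 to 0.13 (Dppa5a). Depth limits Dppa1, which had at most 23 counts in any 4-cell or early 8-cell library.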
